A study of Homo sapiens with 66 samples.

Results

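Spinal motor neurons made from human embryonic stem cells were compared at the last day of their time course with the sampling before it: hMN-D42, cultured for 42 days, against hMN-D30, cultured for 30 days. The comparison holds 3 RNA-seq libraries per day, taken by their sample labels, which is 6 of the 66 libraries of the series. All 6 came from one unmodified cell line, H9, a human embryonic stem cell line, so that culture time was the only labelled difference between the groups. The study grew spinal cord neural progenitor cells (hSCNPCs) and turned them into motor neurons (hMNs), which were collected every 6 days up to day 30 and again at day 42 to follow differentiation and maturation. From plating on poly-D-lysine and Matrigel to collection, both groups were kept in N2 and SM1 medium without vitamin A, with Purmorphamine, an agonist of Hedgehog signalling, Compound E, an inhibitor of gamma-secretase and hence of Notch cleavage, and the growth factors BDNF, GDNF and NT-3. The differentiation protocol names neither added cells nor a sort, and each library is a bulk sample of everything in the dish. The study also grew motor neurons with astrocytes for staining and recordings, and its text does not say that these libraries came from such cultures. Nothing in the labels tells if the 3 libraries of one day came from separate cultures, so the p-values measure the spread among these libraries, which may be technical.

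Spinal motor neurons are the cholinergic cells whose axons leave the spinal cord to reach muscle. They arise from ventral progenitors under Hedgehog signalling, switch on transcription factors such as MNX1 (HB9) and ISL1, and carry a HOX code that records their position along the body. As they mature they stop dividing, lower the genes of migration and axon growth, build synapses and ion channels, and in the animal are joined by glia: astrocytes and oligodendrocytes from the same neural tube, and Schwann cells from the neural crest, which ensheath their axons in the nerve.

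The 6 libraries held between 16354655 and 21687746 counted reads, both of these in hMN-D42. Values are given as CPM, the counts of a gene relative to its library's total as corrected by the trimmed mean of M-values, replicate 1 to replicate 3 in that order, and differences as log2 fold changes of hMN-D42 minus hMN-D30 with their standard error (SE). CPM is not corrected for gene length, so levels are compared between days and not between genes. Counts of ribosomal protein genes made up 1.89 to 1.98% of the hMN-D42 libraries and 1.5 to 1.56% of the hMN-D30 libraries, and counts of mitochondrially encoded genes made up 4.79 to 5.68% in hMN-D42 and 4.62 to 5.57% in hMN-D30. Within both days the libraries were alike (Pearson correlation of log2 CPM across genes, which are not independent replicates, 0.9909 to 0.9927). In the crest, matrix, mesenchymal and cell cycle lists described below, hMN-D30 replicate 3 was nearer to hMN-D42 than the other libraries of its day. For these lists the counts are therefore also given without that library. In other groups another library was nearest: for the roof and floor plate markers, hMN-D30 replicates 1 to 3 summed to 143.8, 95.48 and 106.1 CPM.

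The label was first set against the motor neuron markers. ISL1, a LIM homeodomain factor of motor neurons, was at 23.7, 26.8 and 24.8 CPM in hMN-D42, against 21.3, 20.03 and 19.2 CPM in hMN-D30 (log2 fold change 0.32, SE 0.09, edgeR adjusted p = 0.00307). MNX1, the homeodomain factor that defines motor neurons in the spinal cord, was at 5.69, 4.77 and 6.25 CPM in hMN-D42, against 4.36, 4.09 and 4.02 CPM in hMN-D30 (log2 fold change 0.43, SE 0.15, edgeR adjusted p = 0.0202). Both were higher in each day 42 library than in any day 30 library, but the call of MNX1 was lost in 4 of the 6 fits that left out 1 library, with edgeR adjusted p between 0.0112 without hMN-D42 replicate 2 and 0.146 without hMN-D42 replicate 3. SLC18A3, the vesicular acetylcholine transporter, was at 38.1, 35.7 and 35.7 CPM in hMN-D42, against 43, 40.1 and 38.3 CPM in hMN-D30, a small decrease (log2 fold change -0.15, SE 0.06, edgeR adjusted p = 0.03). CHAT, which makes acetylcholine, was at 3.98, 3.89 and 4.14 CPM in hMN-D42 and 3.66, 4.41 and 3.45 CPM in hMN-D30, and the days overlapped (log2 fold change 0.06, SE 0.17). LHX3, a factor of motor neuron birth and of one medial motor column, was below 1 CPM in all 6 libraries. Of the 8 motor neuron markers 3 were higher and 2 lower, which is 37.5 and 25% against 21.8 and 19.9% of all genes tested. Their summed level was 115, 117 and 115 CPM in hMN-D42, against 129.5, 125 and 124 CPM in hMN-D30. SLC18A3 was not called by DESeq2, nor in 4 of the 6 fits that left out 1 library (edgeR adjusted p between 0.0173 without hMN-D30 replicate 3 and 0.214 without hMN-D30 replicate 1).

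A large part of the transcriptome differed between the days, mostly by little. Of 21175 genes tested, 4619 (21.8%) were higher and 4205 (19.9%) were lower in hMN-D42 by edgeR's quasi-likelihood test with Benjamini-Hochberg adjustment below 0.05, while 12351 were not called. The median over all genes tested was -0.0005 on the log2 scale. Differences of at least 2-fold were less balanced: 1021 called genes (4.82%) were higher and 308 (1.45%) were lower by that much. Against a null of 1.5-fold in place of no change, 898 were higher and 215 lower. In the plot of the difference against the level, genes past 2-fold therefore lay mostly above 0.

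**Figure D1:**
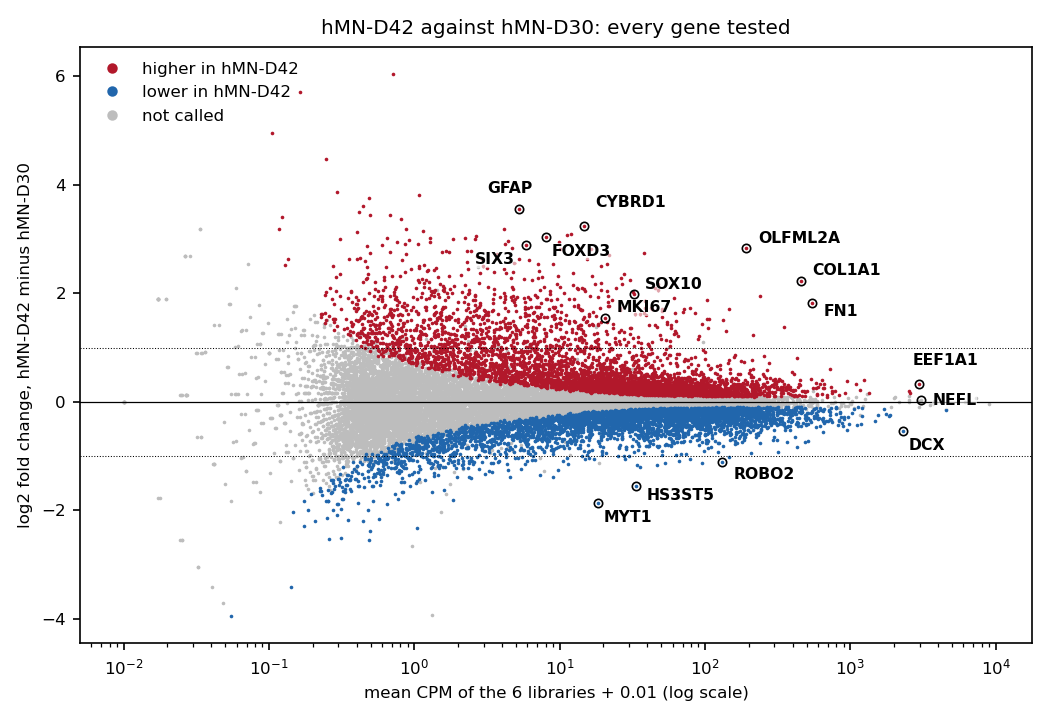
Log2 fold change of hMN-D42 minus hMN-D30 (vertical axis) against the mean CPM of the 6 libraries plus 0.01 (horizontal log axis) for the 21175 genes tested, red where called higher, blue where called lower and grey where not called. Dotted lines mark 2-fold. GFAP, CYBRD1 and FOXD3 lie above 3, COL1A1, FN1 and OLFML2A combine a large difference with a high level, and DCX, HS3ST5 and ROBO2 lie below 0.

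The protein-coding genes with the largest fold change were taken among those called, with at least 5 CPM in every library of the higher day and no overlap between the days. GFAP, the intermediate filament of astrocytes, headed the higher genes (chr17:44903159-44916937, minus strand, hg38), at 9.89, 9.71 and 9.49 CPM in hMN-D42, against 0.566, 1.04 and 0.851 CPM in hMN-D30 (log2 fold change 3.56, SE 0.21, edgeR adjusted p = 1.87e-19). The next 14 were CYBRD1 (an iron reductase, 3.24), CYP1B1 (a cytochrome P450, 3.1), ITIH6 (3.07), FOXD3 (a neural crest transcription factor, 3.04), NFATC2 (a calcineurin-dependent transcription factor, 2.97), PMP22 (peripheral myelin protein, 2.95), CPA4 (2.9), SIX3 (a homeodomain factor of the anterior forebrain and eye, 2.89), CD9 (a tetraspanin, 2.84), OLFML2A (an extracellular matrix protein, 2.84), TGFBR2 (a receptor of TGF-beta, 2.82), LAMA4 (a laminin chain, 2.82), POSTN (periostin, a matrix protein, 2.74) and TFPI2 (a matrix-bound protease inhibitor, 2.72), with edgeR adjusted p from 7.84e-24 for CYBRD1 to 4.71e-08 for CPA4. OLFML2A (chr9:124777133-124814885, plus strand) was at 341, 325 and 346 CPM in hMN-D42, against 38.2, 35.3 and 68.7 CPM in hMN-D30. Its 3 hMN-D42 libraries lay close together, far above hMN-D30, where replicate 3 was the highest.

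The lower genes changed less. MYT1, a zinc finger factor of newborn neurons, had the largest decrease but varied among libraries, with 11.4, 3.89 and 8.32 CPM in hMN-D42, against 33.1, 25.3 and 27.7 CPM in hMN-D30 (log2 fold change -1.87, SE 0.53, edgeR adjusted p = 0.01). HS3ST5, a heparan sulfate sulfotransferase (chr6:114055596-114343023), was at 15.7, 17.4 and 17.4 CPM in hMN-D42, against 49, 52 and 47.9 CPM in hMN-D30 (log2 fold change -1.56, SE 0.07, edgeR adjusted p = 8.38e-24). Its libraries were tight within each day and far apart between them. The other 13 were CHST9 (-1.38), GPR22 (-1.36), CDH20 (-1.26), OPRM1 (the mu opioid receptor, -1.2), CDH10 (-1.17), CNTN4 (contactin 4, -1.17), ODAD3 (-1.15), LRP1B (-1.13), ETNK1 (ethanolamine kinase, -1.13), ROBO2 (a receptor of the guidance cue Slit, -1.12), ZSWIM5 (-1.1), PRDM8 (-1.09) and LMO3 (-1.05).

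Genes were then read in lists of known roles and cell type markers, 813 tested genes in all, and set against the shares over all genes given above. The plot of the lists orders them by their median.

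**Figure D2:**
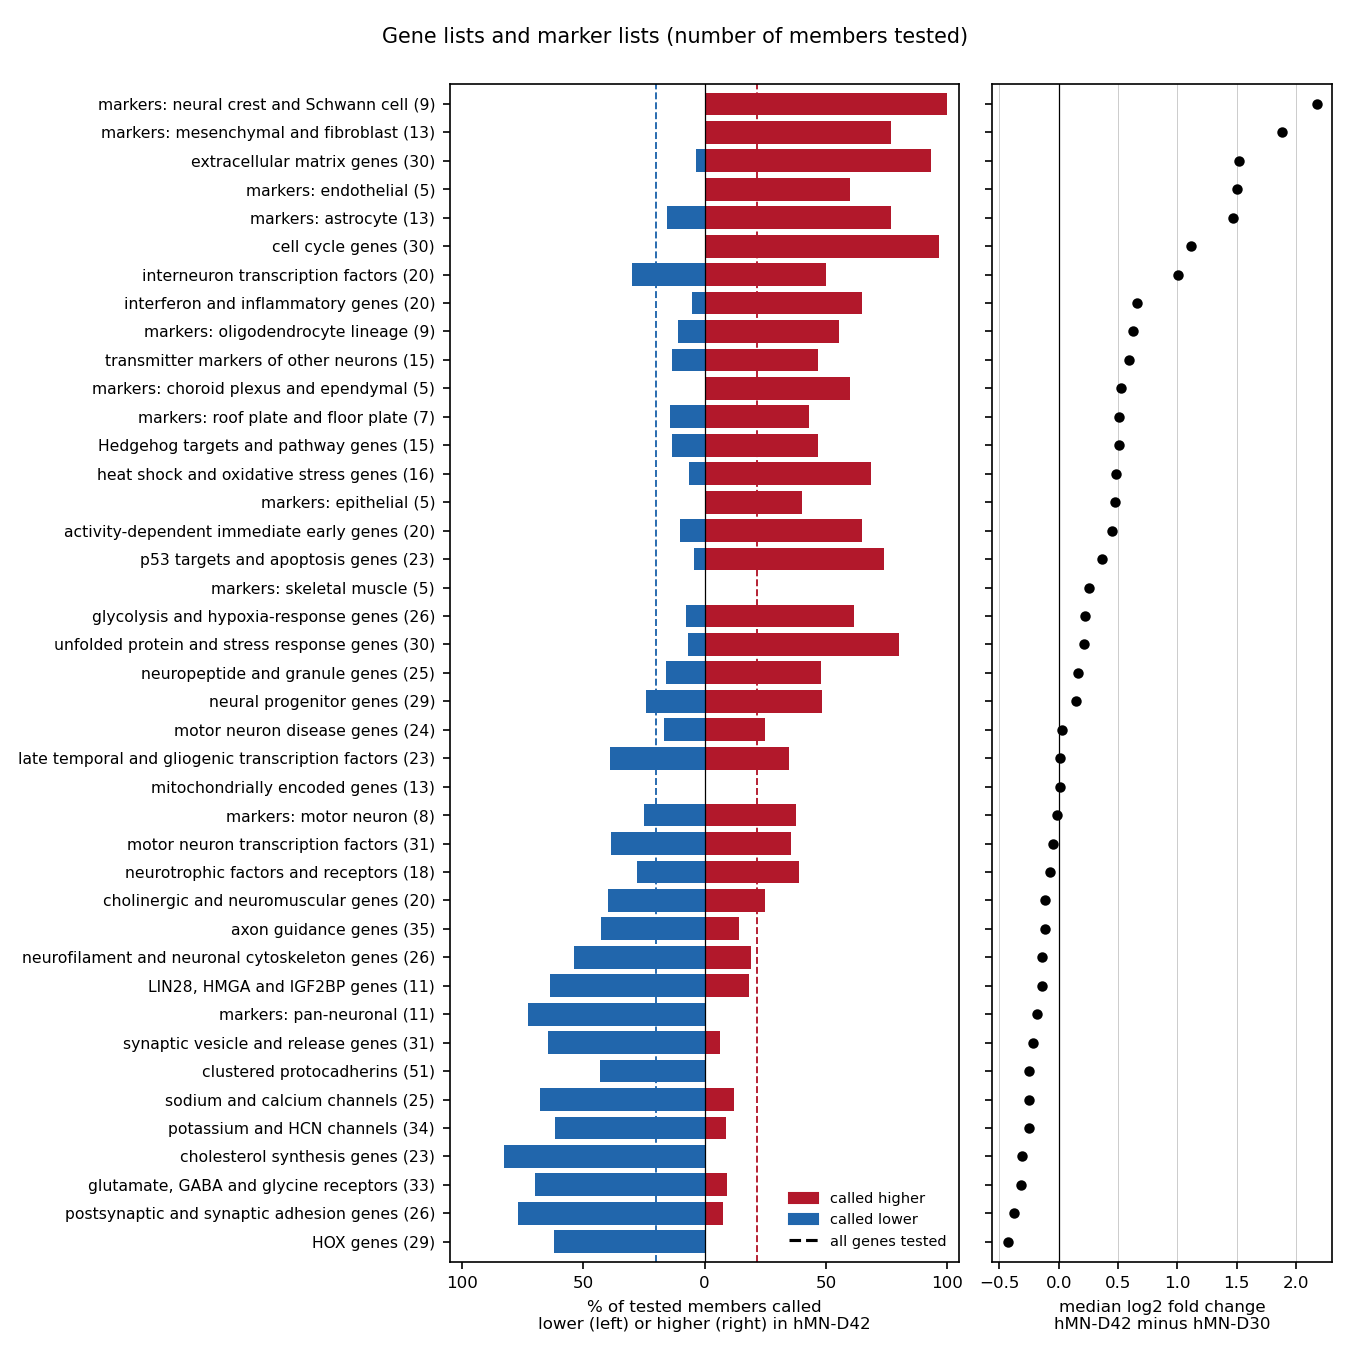
Left, the share of tested members called higher (red, to the right) and lower (blue, to the left) in hMN-D42 against hMN-D30 for each gene list and marker list with at least 5 tested members, with the number tested in brackets; dashed lines mark the shares over all genes, 21.8% higher and 19.9% lower. Right, the median log2 fold change, which ran between 2.17 for the neural crest and Schwann cell markers and -0.43 for the HOX genes.

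Markers of neural crest and Schwann cells were the most uniformly higher list: 9 of 9 were higher, all by at least 2-fold, with a median of 2.17. SOX10, the transcription factor that crest cells and the Schwann lineage depend on, was at 49, 51.4 and 54.2 CPM in hMN-D42, against 10.2, 11.3 and 17.6 CPM in hMN-D30 (log2 fold change 1.99, SE 0.20, edgeR adjusted p = 9.51e-07). CDH19, a cadherin of Schwann cell precursors, was at 10.1, 10.8 and 10.9 CPM in hMN-D42, against 1.18, 1.41 and 2.6 CPM in hMN-D30 (log2 fold change 2.62, SE 0.21, edgeR adjusted p = 5.93e-14). FOXD3 was at 14.9, 13.6 and 14.6 CPM in hMN-D42, against 1.61, 1.59 and 2.03 CPM in hMN-D30 (log2 fold change 3.04, SE 0.19, edgeR adjusted p = 7.65e-18), although 24.1% of its exon bases are shared with another annotated gene. For each of these the lowest day 42 library was more than 2-fold above the highest day 30 library. Further members were ERBB3, the neuregulin receptor of Schwann cells (log2 fold change 2.09), TFAP2A, a crest factor (2.12), S100B (2.17) and PMP22 (2.95).

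The summed level of the 9 crest and Schwann markers was 240.2, 254 and 253 CPM in hMN-D42, against 45.2, 44.6 and 69.9 CPM in hMN-D30. Within hMN-D30, replicate 3 had the highest sum, and without it all 9 markers were still called higher. Over the hMN course the mean sum of the list went up at every sampling, with 10.3 to 13.1 CPM in hMN-D6 and 25.5 to 38.4 CPM in hMN-D24, and the step between days 30 and 42 was the longest in time as well as the largest. SOX10 averaged 0.316 CPM in the progenitors (hSCNPC-P10), 2.48 CPM at day 6, 8.83 CPM at day 24, 13.0 CPM at day 30 and 51.5 CPM at day 42. The progenitors were not low in the whole list, since its sum there was 254.9 to 272 CPM, but that sum did not come from the members named above: FOXD3, CDH19, ERBB3, TFAP2A and S100B were below 1 CPM in each hSCNPC-P10 library, and PMP22 was at 4.28 to 4.98 CPM. In bulk samples a larger number of cells of a type and more RNA per cell cannot be told apart, and this holds for every gene group below.

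Of the extracellular matrix list, 28 of 30 were higher and 1 lower (93.3 and 3.33%), 22 of them by at least 2-fold, with a median of 1.52. COL1A1, the main chain of type I collagen (chr17:50184101-50201632), was at 811, 680.3 and 759.7 CPM in hMN-D42, against 78, 98.8 and 303 CPM in hMN-D30 (log2 fold change 2.23, SE 0.37, edgeR adjusted p = 0.000159). FN1, fibronectin (chr2:215360440-215436073), was at 819, 842 and 895 CPM in hMN-D42, against 137, 166 and 417 CPM in hMN-D30 (log2 fold change 1.83, SE 0.32, edgeR adjusted p = 0.000294). In both genes hMN-D30 replicate 3 stood well above the other day 30 libraries, yet below every hMN-D42 library. SPARC, a collagen-binding matrix protein, was at 381, 386 and 378 CPM in hMN-D42, against 86, 84 and 127 CPM in hMN-D30 (log2 fold change 1.95, SE 0.14, edgeR adjusted p = 1.84e-08).

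Basement membrane chains rose with them: COL4A1 (1.51), COL4A2 (0.84), LAMB1 (0.98), LAMC1 (1.44) and LAMA4 (2.82) on the log2 scale. Tenascin C (TNC), made by glia and by connective tissue, was at 297, 299.5 and 305 CPM in hMN-D42, against 135, 109.9 and 139.5 CPM in hMN-D30 (log2 fold change 1.23). The exception was NCAN, neurocan, a proteoglycan of neural tissue, which was lower at 185, 182 and 189.6 CPM in hMN-D42, against 274, 280.1 and 275 CPM in hMN-D30 (log2 fold change -0.57, SE 0.04, edgeR adjusted p = 4.02e-16). COL9A1 was not called. Without hMN-D30 replicate 3 the list again gave 28 higher and 1 lower.

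Among mesenchymal and fibroblast markers 10 of 13 were higher and none lower, with a median of 1.88. They included COL3A1 (1.88), LUM (2.02), DCN (3.02), PDGFRB (1.73), PRRX1, a mesenchymal homeodomain factor (2.4), and POSTN. The factors TWIST2 and FOXC2 and the surface protein THY1, which neurons also make, were not called, with THY1 at 78.8, 81.1 and 76.3 CPM in hMN-D42 and 65.9, 78.7 and 78.2 CPM in hMN-D30. LUM and DCN were low on both days, below 5 CPM in each library. COL1A1, COL1A2, COL3A1, LUM, DCN and POSTN are on the matrix list too, so these lists are not independent. Of the mean sum of the marker list, 1134 CPM in hMN-D42 and 309.9 CPM in hMN-D30, COL1A1 alone gave 750.3 and 160 CPM. By library the sum was 1198, 1063 and 1143 CPM in hMN-D42, against 199, 239 and 492 CPM in hMN-D30. Within its day hMN-D30 replicate 3 was the highest. Without that library 10 of the 13 were called higher again.

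**Figure D3:**
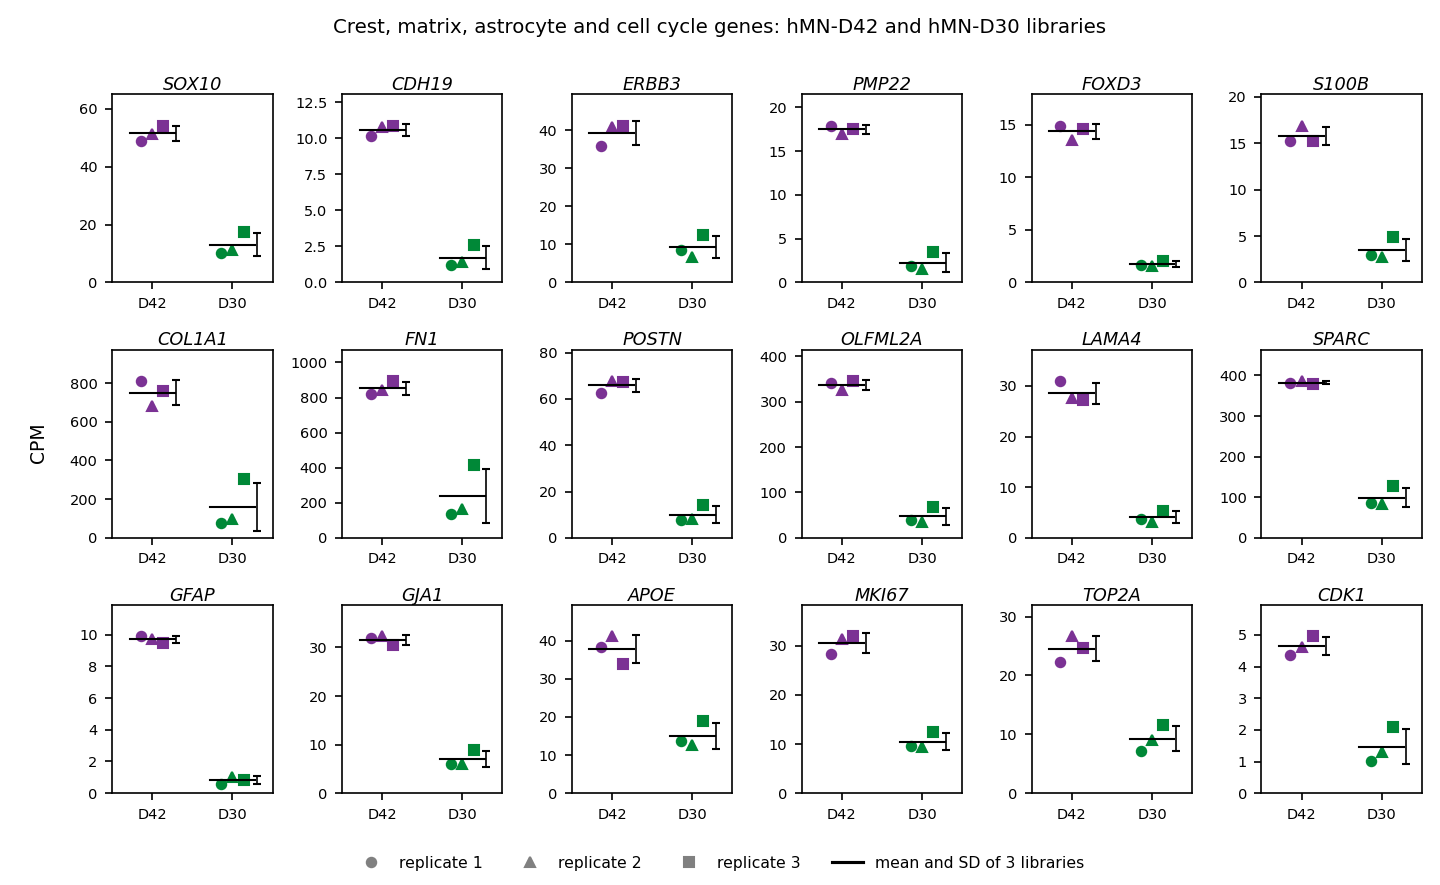
CPM of 18 genes in each library, hMN-D42 left (purple) and hMN-D30 right (green), with replicates 1 to 3 as circle, triangle and square and the mean and SD of the 3 libraries in black. Every panel starts at 0. In none of the 18 genes do the days overlap, and for COL1A1 and FN1 the square of hMN-D30, replicate 3, stands above the other 2 libraries of that day.

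Astrocyte markers were higher in 10 of 13 and lower in 2, with a median of 1.46. Their summed level differed far less than that of the crest list, at 315, 314 and 310.3 CPM in hMN-D42, against 282, 254 and 278 CPM in hMN-D30, a ratio of 1.15. The mean sum at day 42, 313.1 CPM, was close to those at days 12 and 18 (312.3 and 309.6 CPM) and below that of hSCNPC-P10, 859.1 CPM, of which FGFR3 alone gave 576.4 to 609.1 CPM. Beside GFAP, GJA1, the gap junction protein connexin 43, was at 32, 32.3 and 30.4 CPM in hMN-D42, against 5.97, 6.04 and 8.85 CPM in hMN-D30 (log2 fold change 2.19, SE 0.13, edgeR adjusted p = 2.82e-11). APOE, the lipid carrier of astrocytes, was at 38.2, 41.1 and 33.9 CPM in hMN-D42, against 13.6, 12.6 and 18.9 CPM in hMN-D30 (log2 fold change 1.33, SE 0.15, edgeR adjusted p = 9.51e-07). CD44 (2.14), FGFR3 (1.46), SLC1A3, a glutamate transporter (0.78), and AQP4, the water channel of astrocyte endfeet (0.6), were also called higher, AQP4 at 2.5 to 3.29 CPM in hMN-D42 and 1.64 to 2.18 CPM in hMN-D30. SLC1A2, the other astrocytic glutamate transporter, was lower (-0.46), as was SOX9, a glial specification factor (-0.43), and neither call was lost without hMN-D30 replicate 3. ALDH1L1 was not called at 0.455, 0.494 and 1.03 CPM in hMN-D42 and 0.479, 0.409 and 0.615 CPM in hMN-D30. GFAP, APOE, S100B and CD44 are also made by Schwann cells or fibroblasts, and S100B is on the crest list too, so a rise of these genes does not name one cell type; which cells carried them was not tested.

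Oligodendrocyte lineage markers were mixed, with 5 of 9 higher and 1 lower. SOX10, shared with the crest list, was among the 5, and CSPG4 (NG2), which pericytes also carry, was at 57.4, 58 and 64.8 CPM in hMN-D42, against 14.9, 13.2 and 21.7 CPM in hMN-D30 (log2 fold change 1.86). OLIG1 and OLIG2 stayed at or below 2 CPM and were not called, PDGFRA was called higher at a like low level (1.37), CNP was higher (0.25), MBP was slightly lower (-0.21) but not without hMN-D42 replicate 1, hMN-D42 replicate 2 or hMN-D30 replicate 2, and the myelin genes MOG and MAG had 0 and 1 counts over the 3 hMN-D42 libraries and 0 counts each in hMN-D30. Of the microglial markers, AIF1, TYROBP and C1QA had 0 counts in all 6 libraries. Others too low to be tested had few counts over the hMN-D42 and the hMN-D30 libraries: P2RY12 12 and 15, CX3CR1 8 and 10, PTPRC 8 and 3, and C1QB 0 and 1. The 2 tested microglial markers, CSF1R and TMEM119, were higher but below 3 CPM. Endothelial markers were higher in 3 of 5 (FLT1 1.5, KDR 1.57, CLDN5 1.35), each below 4 CPM, with 3 and 5 counts of PECAM1 over the hMN-D42 and the hMN-D30 libraries. No skeletal muscle marker of 5 was called by edgeR, although 1 was when the 6 libraries were fitted alone and without hMN-D42 replicate 3, hMN-D30 replicate 1 or hMN-D30 replicate 3. Further, 2 of 5 epithelial markers were higher (KRT8 and KRT18, 1 of them without hMN-D42 replicate 1 or hMN-D30 replicate 1), 3 of 5 choroid plexus and ependymal markers (AQP1, PIFO and RSPH1) were higher, and 3 of 7 roof and floor plate markers (NTN1, FOXA2 and SPON1) were higher and MSX1 lower. Without hMN-D30 replicate 2, and likewise without replicate 3, 1 roof and floor plate marker was called higher. Of the pluripotency markers 3 were tested: SOX2 and DPPA4 were higher, LIN28A was lower, and POU5F1 and NANOG had 3 or fewer counts over the libraries of either day.

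Genes of cell division were higher at day 42. Of the cell cycle list, 29 of 30 were higher and none lower, 17 by at least 2-fold, with a median of 1.11. MKI67, the antigen of cycling cells, was at 28.2, 31.4 and 31.9 CPM in hMN-D42, against 9.63, 9.31 and 12.5 CPM in hMN-D30 (log2 fold change 1.55, SE 0.18, edgeR adjusted p = 5.77e-06). TOP2A, the topoisomerase of mitotic chromosomes, was at 22.4, 26.6 and 24.6 CPM in hMN-D42, against 7.23, 8.99 and 11.5 CPM in hMN-D30 (log2 fold change 1.41, SE 0.16, edgeR adjusted p = 2.68e-06). CDK1, the kinase that drives mitosis, was at 4.38, 4.61 and 4.96 CPM in hMN-D42, against 1, 1.32 and 2.08 CPM in hMN-D30 (log2 fold change 1.68, SE 0.22, edgeR adjusted p = 5.27e-07). None of the 3 overlapped between the days, and hMN-D30 replicate 3 was again the highest of its day.

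Among genes of mitosis, CCNB1 (1.11), CCNB2 (1.61), AURKB (1.45), CENPF (1.58), UBE2C (1.61), BIRC5 (1.79) and KIF11 (1.67) were above 1 on the log2 scale, and among genes of replication licensing the helicase subunits MCM2 to MCM7 lay between 0.12 (MCM4) and 0.94 (MCM5). RRM2, which makes nucleotides for DNA, had the largest fold change of the list (1.84), and NUSAP1 was not called, with 86.8% of its exon bases shared with other genes. The summed level of the list was 455, 474 and 469 CPM in hMN-D42, against 267, 259 and 287 CPM in hMN-D30. It was lowest at day 24, between 199.4 and 226.0 CPM, and between 6067 and 6365 CPM in the dividing hSCNPC-P10, so the level at day 42 was a small part of that in the progenitors. Without hMN-D30 replicate 3, 28 of the 30 were called higher.

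The promoters of mitotic genes carry letters that are well known from textbooks, and 3 of them are shown as examples, from genes called higher here. CCAAT boxes bind NF-Y, and the cell cycle genes homology region (CHR, TTTGAA) binds the complex that holds these genes silent outside the cycle and drives them in G2 and M phase. The RefSeq sequences (GRCh38.p14, gene strand) hold the 250 bases before the annotated start, with CCAAT and TTTGAA in capitals, or ATTGG and TTCAAA where the other strand carries them.
CDK1, chr10:60778081-60778330, plus strand: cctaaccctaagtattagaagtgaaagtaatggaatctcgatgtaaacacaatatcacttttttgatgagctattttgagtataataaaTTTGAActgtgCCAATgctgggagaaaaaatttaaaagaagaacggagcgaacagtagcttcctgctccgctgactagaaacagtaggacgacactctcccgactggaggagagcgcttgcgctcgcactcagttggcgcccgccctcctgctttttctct
CCNB2, chr15:59104896-59105145, plus strand: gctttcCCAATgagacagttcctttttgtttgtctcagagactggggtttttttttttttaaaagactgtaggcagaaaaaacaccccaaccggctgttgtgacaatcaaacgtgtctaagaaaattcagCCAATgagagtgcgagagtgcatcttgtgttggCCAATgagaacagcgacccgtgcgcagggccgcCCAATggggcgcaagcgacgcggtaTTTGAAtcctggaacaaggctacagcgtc
TOP2A, chr17:40417897-40418146, minus strand: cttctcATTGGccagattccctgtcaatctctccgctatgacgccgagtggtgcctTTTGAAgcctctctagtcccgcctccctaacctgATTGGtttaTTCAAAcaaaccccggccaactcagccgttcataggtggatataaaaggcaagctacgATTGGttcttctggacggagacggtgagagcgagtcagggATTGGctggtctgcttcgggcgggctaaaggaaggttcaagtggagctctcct

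CDK1 has 1 CCAAT and 1 CHR match, CCNB2 has 4 and 1, and TOP2A has 4 and 2. Of the 30 cell cycle genes 24 matched an entry of the promoter table, with 30 promoters. CCAAT was found on either strand in 86.7% of these promoters, against 32% of all 35116 promoters in windows of the same length. TTTGAA was found in 26.7% of them, against 13.3% of all, in MKI67, TOP2A, CCNB2, CDK1, BUB1B, PLK1 and KIF11. The E2F-like letters TTTNGCGC were found in 16.7% (CDK1, NUSAP1, MCM6, MCM7 and CDT1), against 1.51% of all. CDK1 has 2 entries among these promoters, and its E2F-like match lies in the entry not printed above. These shares describe the sequences only.

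Neural progenitor genes were higher in 14 of 29 and lower in 7. The Notch receptors were among the higher ones: NOTCH2 was at 34.1, 32.6 and 34.7 CPM in hMN-D42, against 12.7, 10.1 and 14.6 CPM in hMN-D30 (log2 fold change 1.44, SE 0.11, edgeR adjusted p = 1.46e-09), NOTCH1 and NOTCH3 were higher by 1.36 and 0.97, and the Notch target HES1 by 1.58, while HES5 was at 0 CPM in all 3 hMN-D42 libraries and in 2 of the 3 hMN-D30 libraries. Compound E, present on both days, blocks the cleavage that Notch receptors need to signal. SOX2 was at 76.1, 80.7 and 82.5 CPM in hMN-D42, against 43.8, 46.3 and 47.2 CPM in hMN-D30 (log2 fold change 0.8, SE 0.05, edgeR adjusted p = 5.09e-18), and SOX1 rose by 1.42, PROM1 by 1.84 and VIM, the vimentin gene of progenitors, glia and mesenchyme, by 1.3. Their relative SOX3 was lower (-1.03), as were DACH1, at 99.5, 95.5 and 96.9 CPM in hMN-D42, against 199, 191 and 200.4 CPM in hMN-D30 (log2 fold change -1.01), and CDH2, N-cadherin (-0.48). NES (0.22) was higher and PAX6 not called. SOX2, VIM and HES1 are also expressed by Schwann cells, astrocytes or mesenchyme, and which cells carried them was not tested.

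Hedgehog genes followed the same direction in part, with 7 of 15 higher and 2 lower. The pathway's transcription factors GLI1, a direct target (1.5), GLI2 (0.98) and GLI3 (1.37) were higher, GLI1 at 3.7, 4.61 and 5.74 CPM in hMN-D42, against 1.48, 1.23 and 2.32 CPM in hMN-D30. Without hMN-D42 replicate 2, and likewise without hMN-D30 replicate 1, 1 of the 2 lower members was not called. PTCH1, the receptor and a target, was higher by 0.23 and SMO, the transducer that Purmorphamine activates, by 0.54, whereas CDON and SUFU were lower and HHIP was not called.

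Genes that mark neurons in general were lower, by less. Of the pan-neuronal markers 8 of 11 were lower and none higher, with a median of -0.19. DCX, a microtubule protein of migrating young neurons (chrX:111293779-111412429), was at 1862, 1848 and 1894 CPM in hMN-D42, against 2813, 2682 and 2697 CPM in hMN-D30 (log2 fold change -0.55, SE 0.04, edgeR adjusted p = 3.29e-15). RBFOX3, the NeuN antigen, was at 79.1, 89.5 and 86.8 CPM in hMN-D42, against 112, 118 and 120.5 CPM in hMN-D30 (log2 fold change -0.45, SE 0.05, edgeR adjusted p = 7.44e-11). NEFL, STMN2 and SNAP25 were not called, with NEFL at 3203, 2983 and 3138 CPM in hMN-D42 and 3071, 3062 and 2955 CPM in hMN-D30. The summed level of the 11 markers was 10570, 10580 and 10570 CPM in hMN-D42, against 12100, 12180 and 12000 CPM in hMN-D30, a ratio of 0.874. In the same libraries the sums of the crest and mesenchymal markers were 4.68 and 3.66 times as high in hMN-D42 as in hMN-D30, and what part of the neuronal decrease goes with them was not tested.

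Of the neuronal cytoskeleton list, 14 of 26 were lower and 5 higher. Those lower included the microtubule proteins DPYSL2 (-0.51), DPYSL3 (-0.26), MAP1B (-0.16), MAP2 (-0.36), STMN1 (-0.28), INA, alpha-internexin, the neurofilament that comes first (-0.43), and the ankyrins ANK3 (-0.65) and ANK2 (-0.28). NEFH, the heavy neurofilament that accumulates late, was higher at 40.8, 40.1 and 43.5 CPM in hMN-D42, against 30.02, 30.8 and 32.4 CPM in hMN-D30 (log2 fold change 0.42, SE 0.06, edgeR adjusted p = 1.78e-07). GAP43, a growth cone protein (0.19), MAP1A, the mature counterpart of MAP1B (0.15), and STMN4 (0.19) were also higher, as was PRPH, peripherin, at 3.35, 3.67 and 3.41 CPM in hMN-D42, against 1.7, 1.54 and 1.61 CPM in hMN-D30, with 71.5% of its exon bases shared with other genes. TUBB3, with 21.3% of its exon bases shared, was counted at only 15.2, 12.8 and 14.3 CPM in hMN-D42 and 18.2, 20.4 and 17.3 CPM in hMN-D30, and its level is uncertain. MAPT was not called, at 3.07, 5.76 and 4.83 CPM in hMN-D42 and 5.01, 16.4 and 11.9 CPM in hMN-D30.

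Synaptic genes were mostly lower. Of the synaptic vesicle and release list, 20 of 31 were lower and 2 higher (64.5 and 6.45%), with a median of -0.21, none by 2-fold. SYT4, a synaptotagmin of dense-core vesicles, was at 391, 381 and 380.2 CPM in hMN-D42, against 646, 632 and 624 CPM in hMN-D30 (log2 fold change -0.72, SE 0.04, edgeR adjusted p = 2.12e-19). The calcium sensor SYT1 (-0.3 on the log2 scale), the active zone genes RIMS1 (-0.4), PCLO (-0.4) and BSN (-0.35) and the vesicle protein SV2A (-0.32) were lower, while VAMP2, STX1A and UNC13A were not called and the synuclein SNCB was higher (0.31). When the 6 libraries were fitted alone 5 members were higher, and without hMN-D42 replicate 2 or hMN-D30 replicate 1 only 1 was. The sum over the list was largest at day 24, 7645 CPM, and stood at 5918 CPM in hMN-D42 and 7001 CPM in hMN-D30.

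Postsynaptic and adhesion genes were lower in 20 of 26 and higher in 2, with a median of -0.38. CBLN2, which bridges neurexins to glutamate receptors, was at 69.4, 65.7 and 68 CPM in hMN-D42, against 127, 130.3 and 126 CPM in hMN-D30 (log2 fold change -0.92, SE 0.04, edgeR adjusted p = 2e-22). SHANK1 (-0.67), GPHN, the scaffold of inhibitory synapses (-0.55), NLGN2 (-0.44) and DLG4, PSD-95 (-0.19), were lower too. NPTX2, a pentraxin that gathers AMPA receptors and follows activity, was the exception, at 46.5, 49.4 and 48.2 CPM in hMN-D42, against 26.9, 27 and 26.3 CPM in hMN-D30 (log2 fold change 0.84, SE 0.06, edgeR adjusted p = 2.7e-17), and CAMK2A was higher by 0.18. Without hMN-D42 replicate 3, and likewise without hMN-D30 replicate 3, 1 of these 2 was called higher.

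Receptors and channels were mostly lower too. Of the glutamate, GABA and glycine receptors 23 of 33 were lower and 3 higher (69.7 and 9.09%), with a median of -0.31. GRIA3, an AMPA receptor subunit, was at 25.6, 24.9 and 26 CPM in hMN-D42, against 44.4, 43.1 and 43.5 CPM in hMN-D30 (log2 fold change -0.77, SE 0.06, edgeR adjusted p = 1.23e-15). The NMDA receptor subunits GRIN1 (-0.54), GRIN2B (-0.65), GRIN2D (-0.64) and GRIN3A (-0.72) were lower, and GRIN2A, the subunit that comes up later in brain development, was lower too (-0.19). Sodium and calcium channels were lower in 17 of 25 and higher in 3, with SCN3A, the fetal sodium channel, at 167, 161 and 162 CPM in hMN-D42, against 241, 229.8 and 226 CPM in hMN-D30 (log2 fold change -0.51, SE 0.04, edgeR adjusted p = 1.3e-14), SCN2A at -0.39 and SCN8A, the main sodium channel of mature nodes, at -0.26. Potassium and HCN channels were lower in 21 of 34 and higher in 3. KCNQ3 and KCND3 were among those higher, by 0.37 and 0.42 on the log2 scale.

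Axon guidance genes were lower in 15 of 35 and higher in 5. ROBO2 (chr3:75906695-77649964) was at 82.6, 79 and 84.5 CPM in hMN-D42, against 175, 180.1 and 179.6 CPM in hMN-D30 (log2 fold change -1.12, SE 0.04, edgeR adjusted p = 8.08e-26). DCC, the netrin receptor that attracts axons, was at 132, 129 and 141 CPM in hMN-D42, against 234, 215 and 227 CPM in hMN-D30 (log2 fold change -0.75, SE 0.06, edgeR adjusted p = 8.98e-12). Other receptors were lower as well: UNC5D (-0.94), ROBO1 (-0.6), EPHA7 (-0.97), EPHA5 (-0.59) and EPHA3 (-0.53). The netrin ligand NTN1 was higher (0.64), as were SEMA3C (0.36) and NRP2 (0.27), and L1CAM, CNTN1 and CNTN2 were not called. ROBO2 peaked at days 12 and 18, at 255.3 and 254.6 CPM, before the lower levels of days 30 and 42. Clustered protocadherins, which give neurons their surface identity, were lower in 22 of 51 and higher in none, with a median of -0.25; their exons overlap (51.8% of the exon bases of PCDHA3 are shared, for example), so single members are uncertain.

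**Figure D4:**
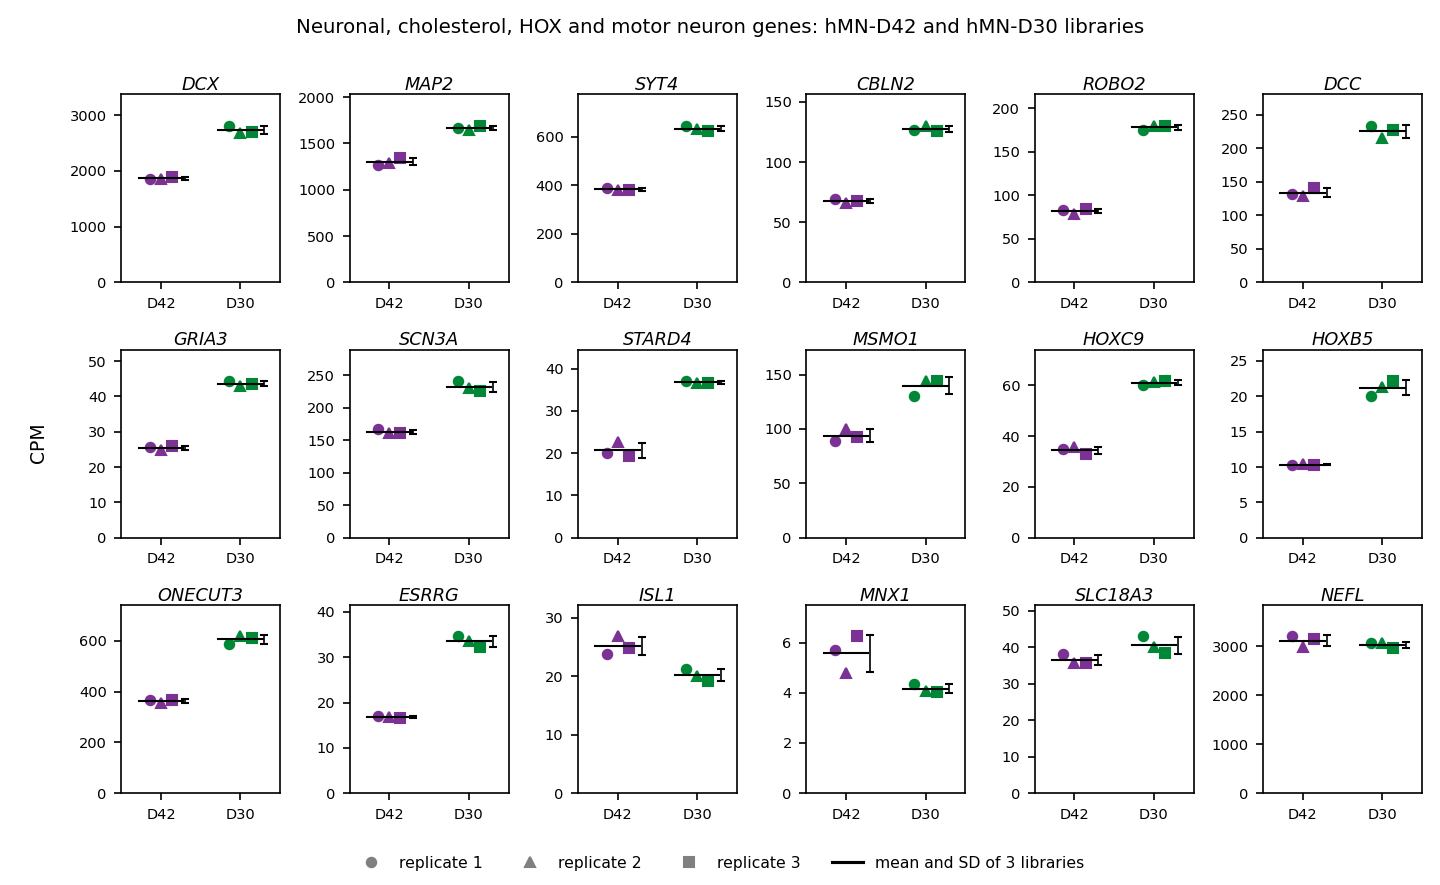
CPM of 18 neuronal, cholesterol synthesis, HOX and motor neuron genes in each library, hMN-D42 left (purple) and hMN-D30 right (green), with replicates 1 to 3 as circle, triangle and square and the mean and SD of the 3 libraries in black. Every panel starts at 0. The first 14 genes are lower in hMN-D42 without overlap, ISL1 and MNX1 are higher, and SLC18A3 and NEFL differ little.

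Motor neuron transcription factors went both ways, with 11 of 31 higher and 12 lower. The onecut factors, which act upstream of ISL1 in the mouse, were lower: ONECUT3 was at 367, 355 and 367 CPM in hMN-D42, against 587, 618 and 610.4 CPM in hMN-D30 (log2 fold change -0.74, SE 0.04, edgeR adjusted p = 3.05e-20), with ONECUT2 (-0.55) and ONECUT1 (-0.75). ESRRG, which marks gamma motor neurons in the mouse, was at 17, 16.9 and 16.6 CPM in hMN-D42, against 34.6, 33.6 and 32.3 CPM in hMN-D30 (log2 fold change -1, SE 0.06, edgeR adjusted p = 3.96e-19). EBF1 (-0.73), EBF3 (-0.51), ZFHX4 (-0.75) and NR2F2 (-0.42) were lower too. The higher ones included RUNX1 (1.41), BCL6 (1.1), POU3F1 (SCIP, 0.71), ETV5 (0.68), ZFHX3 (0.65) and ALDH1A2, the retinoic acid enzyme of limb-level motor neurons (0.32). FOXP1, the factor of the lateral motor column, was not called at 10.2, 10.5 and 9.27 CPM in hMN-D42 and 8.63, 8.59 and 7.99 CPM in hMN-D30, and neither was ISL2.

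Cholinergic and neuromuscular genes were lower in 8 of 20 and higher in 5. SLC5A7, which takes up choline, was at 32.6, 34.4 and 32.7 CPM in hMN-D42, against 47.4, 46.6 and 49.1 CPM in hMN-D30 (log2 fold change -0.52, SE 0.05, edgeR adjusted p = 1.05e-11). ACHE, acetylcholinesterase, was at 245, 245 and 239 CPM in hMN-D42, against 199.5, 199 and 211 CPM in hMN-D30 (log2 fold change 0.26, SE 0.04, edgeR adjusted p = 4.45e-07), and BCHE, a cholinesterase that glia also make, was higher by 1.06. NRG1, the neuregulin that motor axons offer to Schwann cells through ERBB3, was lower at 109, 114 and 114 CPM in hMN-D42, against 155, 154 and 155 CPM in hMN-D30 (log2 fold change -0.46, SE 0.04, edgeR adjusted p = 1.85e-13). AGRN, agrin, which clusters acetylcholine receptors, was slightly higher (0.13), and the receptor subunits CHRNA4 and CHRNB2 were lower (-0.34 and -0.28). Without hMN-D42 replicate 3 and without hMN-D30 replicate 2, 3 of the 20 were called higher.

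Of the neurotrophic list, 7 of 18 were higher and 5 lower, which is 38.9 and 27.8% against 21.8 and 19.9% of all genes (8 lower when the 6 libraries were fitted alone, and 4 higher without hMN-D30 replicate 3). Of the receptors for the growth factors of the medium, RET, which signals for GDNF, and NTRK2, the BDNF receptor, were not called, with NTRK2 at 131, 131 and 134 CPM in hMN-D42 and 141, 139 and 139.6 CPM in hMN-D30. NTRK3, the NT-3 receptor, was lower (-0.6). The cytokine receptor subunit LIFR was higher (0.6), and so were CNTF, a factor of Schwann cells (1.35), and GDNF (0.85), both below 5 CPM.

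HOX genes were lower or not called, and none was higher. Of 29 tested, 18 were lower (62.1%), with a median of -0.43. HOXC9, which sets thoracic identity, was at 34.8, 35.6 and 33 CPM in hMN-D42, against 59.99, 61.3 and 61.7 CPM in hMN-D30 (log2 fold change -0.83, SE 0.05, edgeR adjusted p = 2.69e-18). HOXB5 was at 10.3, 10.4 and 10.3 CPM in hMN-D42, against 20.04, 21.4 and 22.2 CPM in hMN-D30 (log2 fold change -1.04, SE 0.08, edgeR adjusted p = 9.03e-16). Neither overlapped between days. HOXA2 (-1.1), HOXB8 (-0.98), HOXB7 (-0.89) and HOXB6 (-0.85) were lower too, and so were HOXC6 (-0.45) and HOXC8 (-0.56), so that hindbrain, brachial and thoracic genes were all among those that fell. HOXD3, HOXB4 and HOXC10 were not called, and the lumbar gene HOXD10 stayed below 0.5 CPM in all 6 libraries. The sum of the list was 300, 295 and 283 CPM in hMN-D42, against 418, 437 and 421 CPM in hMN-D30, the end of a decline over the course (1565 CPM at day 6, 497.7 CPM at day 24). Reads of several HOX genes may be shared with neighbours (62.5% of the exon bases of HOXA7).

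Genes of developmental timing moved too. LIN28B, the RNA-binding protein that blocks let-7 and keeps an early state, was at 24.4, 28.6 and 25.1 CPM in hMN-D42, against 50.5, 50.8 and 49.2 CPM in hMN-D30 (log2 fold change -0.95, SE 0.05, edgeR adjusted p = 3.81e-20). LIN28A (-0.98), the let-7 target TRIM71 (-0.56) and NR6A1, a nuclear receptor that sets trunk development in the mouse (-0.82), were lower as well, 7 of 11 of the list in all. HMGA2 went the other way, at 18.8, 19.3 and 19.6 CPM in hMN-D42, against 6.45, 7.09 and 9.08 CPM in hMN-D30 (log2 fold change 1.36, SE 0.20, edgeR adjusted p = 4.33e-05), and so did HMGB2, which dividing cells express (0.94). Late temporal and gliogenic factors split into 8 of 23 higher and 9 lower. NFIX was at 24, 22.1 and 25.5 CPM in hMN-D42, against 7.06, 4.22 and 6.1 CPM in hMN-D30 (log2 fold change 2.04, SE 0.21, edgeR adjusted p = 3.66e-07), with NFIB (1.1) and NFIA (0.79), the nuclear factor I genes that turn on with gliogenesis and in late-born neurons of the mouse spinal cord. MEF2C (1.04) and NR3C1, the glucocorticoid receptor (0.85), were higher, and POU3F2 (-0.5), RBFOX1 (-0.65), ZBTB20 (-0.63) and NEUROD1 (-1.37) lower.

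**Figure D5:**
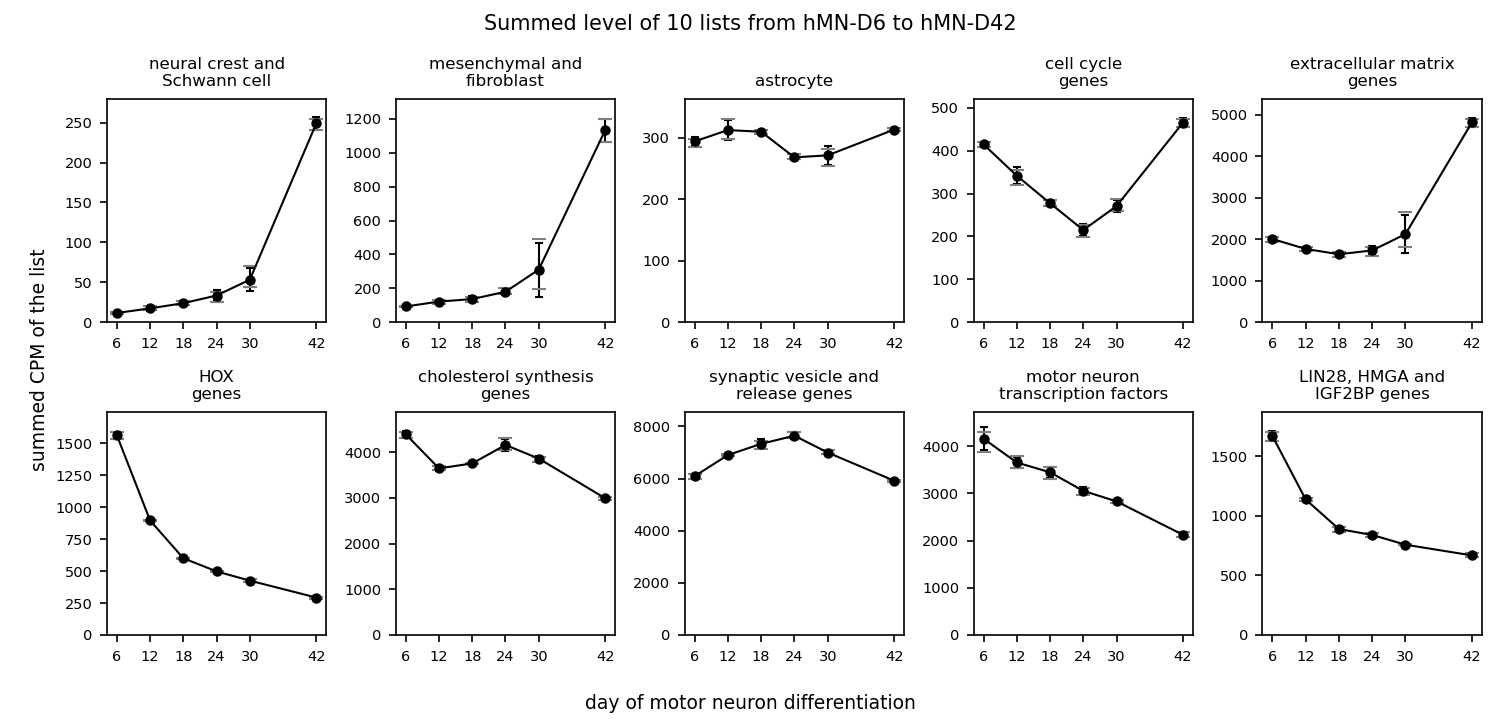
Summed CPM of 10 lists (vertical axes, each starting at 0) at days 6, 12, 18, 24, 30 and 42 of motor neuron differentiation, as the mean and SD of 3 libraries per day with the lowest and highest library as grey dashes. The sums of crest, mesenchymal and matrix genes were highest in hMN-D42, the cell cycle sum was lowest at day 24, and the HOX, motor neuron factor and LIN28 sums fell throughout.

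Transcription factors of spinal interneurons moved in opposite directions, 10 of 20 higher and 6 lower. SOX14 was at 33, 31.4 and 30.9 CPM in hMN-D42, against 48.6, 50.2 and 46.1 CPM in hMN-D30 (log2 fold change -0.6, SE 0.05, edgeR adjusted p = 2.6e-13). SOX21 (-0.39), PAX2 (-0.92), LHX5 (-0.73) and the dorsal factor LBX1 (-0.79) were lower with it. GATA3, which with GATA2 specifies V2b neurons and serotonergic neurons, was at 15.4, 13.3 and 16.4 CPM in hMN-D42, against 3.96, 7.63 and 3.88 CPM in hMN-D30 (log2 fold change 1.54, SE 0.30, edgeR adjusted p = 0.000625). NKX2-2, the factor of the p3 domain beside the floor plate, was at 8.02, 6.75 and 8.54 CPM in hMN-D42, against 2.75, 2.13 and 1.32 CPM in hMN-D30 (log2 fold change 1.9, SE 0.27, edgeR adjusted p = 5.85e-06), with 43.9% of its exon bases shared. EN1 (1.37), LMX1B (0.93) and FOXD3, which also marks V1 neurons, were higher. SIX3 was at 10.3, 10.4 and 10.1 CPM in hMN-D42, against 1.39, 1.14 and 1.61 CPM in hMN-D30, and had been below 1 CPM in every library up to day 24.

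Both lists hold serotonergic genes, picked out here after their values were seen. FEV (Pet1), the factor that defines serotonergic neurons, was at 10.2, 10.6 and 11 CPM in hMN-D42, against 2.44, 4.77 and 2.27 CPM in hMN-D30 (log2 fold change 1.75, SE 0.24, edgeR adjusted p = 4.73e-06). TPH2, which makes serotonin in neurons, was at 8.3, 7.4 and 7.24 CPM in hMN-D42, against 1.05, 2.45 and 1.23 CPM in hMN-D30 (log2 fold change 2.27, SE 0.20, edgeR adjusted p = 3.44e-13). SLC6A4, the serotonin transporter, was called at about 1 CPM (1.25) and DDC at about 10 CPM (0.7), while SLC18A2, the vesicular monoamine transporter, was not called and below 1 CPM in all 6 libraries. For FEV, GATA2, GATA3 and TPH2 it was hMN-D30 replicate 2 that was the highest of its day, still below each hMN-D42 library, and GATA2 (log2 fold change 0.98) lost its call in 4 of the 6 fits that left out 1 library. In the transmitter list as a whole 7 of 15 were higher and 2 lower: TH, the enzyme of dopamine synthesis, was at 23.6, 20.7 and 21.9 CPM in hMN-D42, against 10.8, 11.9 and 9.65 CPM in hMN-D30 (log2 fold change 1.03), GAD1, GAD2 and SLC32A1 of GABA neurons rose by 0.28, 1.01 and 1.02, the glutamate transporters SLC17A6, SLC17A7 and SLC17A8 were not called, and SLC6A5, the glycine transporter, was lower (-0.79).

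Neuropeptide and granule genes were higher in 12 of 25 and lower in 4. TAC1, the precursor of substance P, was at 20.6, 21.3 and 21.8 CPM in hMN-D42, against 6.27, 5.31 and 8.28 CPM in hMN-D30 (log2 fold change 1.69, SE 0.13, edgeR adjusted p = 3.61e-14). CARTPT was at 24.1, 25.6 and 24 CPM in hMN-D42, against 12, 11 and 13.5 CPM in hMN-D30 (log2 fold change 1.01, SE 0.10, edgeR adjusted p = 2.91e-12). SCG2, a granin, was higher at 1046, 1116 and 1045 CPM in hMN-D42, against 799.8, 822 and 824 CPM in hMN-D30, as were PTPRN (0.51), VGF (0.16), SST (0.45), PENK (1.16) and CRH (2.01, below 3 CPM). PCSK2, a prohormone convertase, was lower (-0.48). CHGA could not be read, since single libraries of either day differed several-fold, at 2.73, 18.5 and 3.19 CPM in hMN-D42 and 3.14, 19.3 and 17.8 CPM in hMN-D30.

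Cholesterol synthesis genes were lower as a pathway: 19 of 23 were lower (82.6%) and none higher, with a median of -0.31. STARD4, a carrier of cholesterol between membranes, was at 20.1, 22.7 and 19.3 CPM in hMN-D42, against 37.1, 36.6 and 36.5 CPM in hMN-D30 (log2 fold change -0.83, SE 0.06, edgeR adjusted p = 2.98e-15). MSMO1, an oxidase that removes methyl groups from the sterol ring, was at 89.1, 100.4 and 92.4 CPM in hMN-D42, against 131, 144 and 144 CPM in hMN-D30 (log2 fold change -0.57, SE 0.06, edgeR adjusted p = 1.8e-08). The days did not overlap in either gene. HMGCS1 (-0.46), DHCR7 (-0.48), SQLE (-0.28) and the sterol sensor INSIG1 (-0.35) were lower, and FDPS, LSS and PMVK were not called. The sum was 2964, 3017 and 2993 CPM in hMN-D42, against 3787, 3901 and 3893 CPM in hMN-D30, below every earlier day of the course, where the lowest mean was 3645 CPM at day 12. When the 6 libraries were fitted alone, 1 member was called higher. The neuronal marker sum of the same libraries was also lower, by a ratio of 0.874 against 0.775 for this list, and whether they move together was not tested.

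Stress and injury genes were higher in small steps. Of the unfolded protein and integrated stress response genes, 24 of 30 were higher and 2 lower (80 and 6.67%), yet none by 2-fold, with a median of 0.21. HSPA5 (BiP), the chaperone of the endoplasmic reticulum, was at 362, 366 and 360.5 CPM in hMN-D42, against 292, 300.3 and 311 CPM in hMN-D30 (log2 fold change 0.27, SE 0.04, edgeR adjusted p = 1.35e-07). ATF4, the transcription factor of the integrated stress response, was at 396, 383 and 373 CPM in hMN-D42, against 295, 298 and 289 CPM in hMN-D30 (log2 fold change 0.39, SE 0.04, edgeR adjusted p = 8.1e-11), but its target ASNS was lower (-0.63, 49.3% of exon bases shared). In 7 of the alternative fits, among them DESeq2 and 5 of the 6 that left out 1 library, 1 of the 2 lower members was not called. ASNS itself kept its call in each fit that left out 1 library. Secretory cells that make matrix use the same chaperones, and the summed level of the matrix list was 2.27 times as high in the same hMN-D42 libraries as in hMN-D30; its part in the result was not tested.

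Of the p53 and apoptosis list, 17 of 23 were higher and 1 lower. CDKN1A (p21), the cell cycle inhibitor, was at 184, 186 and 179 CPM in hMN-D42, against 108, 105 and 109 CPM in hMN-D30 (log2 fold change 0.77, SE 0.04, edgeR adjusted p = 9.32e-20), and BAX (0.52), PMAIP1 (1.24), GDF15 (0.79) and MDM2 (0.3) were higher. Without hMN-D30 replicate 2, and without replicate 3, its 1 lower member, BCL2L1, was not called. Activity-dependent immediate early genes were higher in 13 of 20 and lower in 2. JUN was at 235, 234 and 225 CPM in hMN-D42, against 144, 135 and 138 CPM in hMN-D30 (log2 fold change 0.73, SE 0.05, edgeR adjusted p = 2.68e-18), with ATF3, a factor of injured neurons (0.86), FOSL2 (1.14), FOS (0.27) and NPAS4 (0.6), whereas EGR1 (-0.33) and EGR3 (-0.48) were lower and ARC was not called. Without hMN-D42 replicate 1, 1 of the 2 lower genes was not called.

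Heat shock and oxidative stress genes were higher in 11 of 16 and lower in 1. HMOX1, heme oxygenase, was at 8.59, 8.72 and 8.54 CPM in hMN-D42, against 3.62, 2.77 and 4.21 CPM in hMN-D30 (log2 fold change 1.29), and NQO1 was at 24, 25.3 and 21.7 CPM in hMN-D42, against 4.4, 6.27 and 6.15 CPM in hMN-D30 (log2 fold change 2.08). Both were higher in each day 42 library than in any day 30 library. Glycolysis and hypoxia-response genes were higher in 16 of 26 and lower in 2: HK2 was at 12.8, 12.8 and 12.9 CPM in hMN-D42, against 3.4, 3.32 and 3.69 CPM in hMN-D30 (log2 fold change 1.89, SE 0.12, edgeR adjusted p = 1.96e-18), and SLC2A1, the glucose transporter GLUT1 (1.11), VEGFA (0.71), NDRG1 (0.88) and ENO1 (0.42) were higher, while the neuronal enolase ENO2 and HK1 were not called. Interferon and inflammatory genes were higher in 13 of 20 and lower in 1, mostly at low level, with B2M, the light chain of class I molecules, at 15.6, 16.4 and 15 CPM in hMN-D42, against 6.97, 7.86 and 6.15 CPM in hMN-D30 (log2 fold change 1.16) and IFIT3 lower (-0.65). None of the 13 mitochondrially encoded protein genes was called by edgeR, with 0 of them at an unadjusted p under 0.05 and 0 called by DESeq2, while 1 was called lower without hMN-D42 replicate 2.

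By abundance, the largest gains among the genes chosen by the difference of mean CPM were EEF1A1, the translation elongation factor, at 3337, 3361 and 3240 CPM in hMN-D42, against 2580, 2584 and 2760 CPM in hMN-D30 (log2 fold change 0.33, SE 0.04, edgeR adjusted p = 2.08e-08), FN1, COL1A1, TMSB4X (0.4), EEF2 (0.19), IGFBP5, a binding protein of insulin-like growth factors (1.38), FTL, the ferritin light chain (0.61), OLFML2A, VGF and SPARC. The largest losses were DCX, MAP1B, MAP2, NCAM1, the neural cell adhesion molecule (-0.42), DPYSL2, DPYSL3, INA, DYNC1H1, the dynein heavy chain of axonal transport (-0.24), SPTAN1 (-0.23) and APC2 (-0.45). EEF1A1 and EEF2 moved with the ribosomal protein share given above.

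Long non-coding RNAs were called higher less often than all genes tested (21.8%), and lower about as often (19.9% of all genes). Of 4034 tested, 767 were lower (19%) and 193 were higher (4.78%), with a median of -0.21, while protein-coding genes gave 3190 lower (21.6%) and 4276 higher (28.9%) of 14781, with a median of 0.04. The files do not state whether reads were counted by strand, so the level of RNAs antisense to a gene is uncertain. MIR124-2HG, the host transcript of the neuronal microRNA miR-124, was at 73.9, 77 and 74.5 CPM in hMN-D42, against 106, 109 and 102 CPM in hMN-D30 (log2 fold change -0.49, SE 0.05, edgeR adjusted p = 3.31e-12). MIAT (-0.34), CRNDE (-0.57) and LINC00205 (-0.56) were lower too, and NEAT1, the scaffold of nuclear paraspeckles, was higher at 199.9, 183 and 197 CPM in hMN-D42, against 152, 155 and 161 CPM in hMN-D30 (log2 fold change 0.31). These lncRNAs were picked after their values were seen, as abundant examples.

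Genes of amyotrophic lateral sclerosis and motor neuron disease were higher in 6 of 24 and lower in 4, which is 25 and 16.7% and near the 21.8 and 19.9% of all genes. TARDBP (TDP-43) was at 82.9, 82.4 and 81.8 CPM in hMN-D42 and 83.5, 81.5 and 82.1 CPM in hMN-D30, and C9orf72, KIF5A, VCP and STMN2 were not called either. SQSTM1 (p62), the autophagy receptor, was at 187, 180.3 and 169.5 CPM in hMN-D42, against 122, 117 and 115 CPM in hMN-D30 (log2 fold change 0.6, SE 0.04, edgeR adjusted p = 6.15e-16). OPTN (0.32), ANXA11 (1.23), TUBA4A (1.94), PFN1 (0.27) and SOD1 (0.14) were higher, and MATR3 (-0.4, 42.6% of exon bases shared), CCNF (-0.37) and NEK1 (-0.18) were among those lower. SMN1 and SMN2, near-identical copies whose reads cannot be assigned, were below 1 CPM in all 6 libraries. Of the 26 tested genes that the study named for the motor neuron course, a list chosen on these samples, 9 were higher and 11 lower, among them the higher SIX3, NKX2-2 and TH and the lower FOXP2 (-0.63), GBX2 (-0.27) and SYP (-0.19).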

How the data were processed

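RNA-seq was compared between hMN-D42 and hMN-D30, 3 libraries each, grouped by their sample labels. According to the study's methods and the submitters' processing notes, the authors extracted total RNA with TRIzol, made mRNA libraries with a NEBNext Ultra kit, sequenced paired ends and trimmed them with fastp. HISAT2 2.1.0 was the aligner, on hg38, and featureCounts 1.5.3 assigned reads to GENCODE genes. The deposited columns hold raw whole-number counts of each gene in each library. The annotation release and the strand setting of the counting are not given in the sources used here, so overlapping and antisense genes are uncertain. No other processing was done on the deposited counts.

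Gene symbols came from GENCODE v44 (60261 of 60603 IDs, 99.44%), which also gave the share of exon bases that a gene shares with others. The 18 hMN libraries of the course and 3 libraries of hSCNPC-P10 were fitted in one edgeR 4.0.16 quasi-likelihood model (limma 3.58.1, R 4.3.3) after filterByExpr and TMM scaling, with 21175 genes tested, and hMN-D42 was contrasted with hMN-D30. The adjusted p is by Benjamini-Hochberg over all genes tested, with a threshold of 0.05, and the SE is the log2 fold change divided by the square root of F. CPM was computed on TMM-scaled library sizes. At these depths 3 counts correspond to 0.138 to 0.183 CPM. Named genes were the members of 30 gene lists and 13 marker lists, the genes that the study named for the course, the 15 protein-coding genes in each direction with the largest fold change (at least 5 CPM in every library of the higher day, no overlap) and the 10 in each direction with the largest difference of mean CPM. The members and lists were chosen with earlier results of these data known. Some genes that the rule takes in are not reported here. The named gene rule was met by 3284 higher and 2893 lower genes.

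Alternatives were RLE size factors, no filter, a filter of 1 CPM, glmTreat against 1.5-fold, the 6 libraries alone, the 18 hMN libraries alone, the replicate number as a block, each library left out in turn, and DESeq2 1.42.0 (tested on the same counts). Libraries of a day were compared in pairs and none was found to be a repeat of another. The code was tested on simulated counts with known fold changes. Promoter sequences came from RefSeq (GRCh38.p14), and letters were searched on both strands. Figures were drawn with matplotlib 3.10.9.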

Additional observations from a re-analysis of the deposited data

How the results depend on the processing

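Of the 21175 genes, 4619 were called higher and 4205 lower. Against a null of 1.5-fold (glmTreat) these counts were 898 and 215, those at least 2-fold lower were 102 in place of 308, and the list members called were 161 in place of 571, as a test against a larger null must call fewer. Under it 6 HOX genes, 3 cholesterol synthesis genes, 2 postsynaptic genes and 0 pan-neuronal markers were lower and 1 unfolded protein response gene was higher, while the higher crest, mesenchymal, matrix, astrocyte and cell cycle genes stayed within 1.5 times of their count. With at least 1 CPM in every library of a group, 147 genes were lower by at least 2-fold, since genes near 0 CPM were then not tested. Leaving out 1 library at a time gave 3914 to 4188 genes higher and 3662 to 3848 lower. With the replicate number as a block, 4666 were higher and 4233 lower, and 8726 of its 8899 calls were shared with the 8824 of the fit without it. The same-numbered libraries of the days did not deviate together (correlations 0.018, -0.022 and -0.021). No pairing by number was seen, but a shared culture need not leave a common deviation, so it stays unknown. DESeq2 gave 4249 higher and 3718 lower, and 7911 of its 7967 calls were shared. In each of the 14 alternatives every gene called in both fits had the same direction. Among the genes named, no direction was reversed. AGRN, AQP4, BCL2L1, BSN, CAMK2A, CDON, CLDN5, EGR3, FOXA2, GATA2, KRT8, MAP1A, MBP, MCM4, MNX1, NEK1, NPAS4, PDGFRA, PTCH1, RSPH1, SLC18A3, SLC32A1, SOD1 and SPON1 lost their call without at least 1 of the libraries. GATA2 and SPON1 also lost it with the 6 libraries fitted alone (edgeR adjusted p = 0.085 and 0.06). Of the genes given as not called, STX1A was called in 6 alternatives, FDPS, HHIP, MAPT, OLIG1 and STMN2 without 1 or other of the libraries, HHIP also with the block, and FOXP1, L1CAM, NTRK2, PMVK, SLC17A8, STMN2 and UNC13A with the 6 libraries fitted alone. At this depth genes below about 1 CPM rest on few counts, and differences there were detectable only if large.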

Other observations

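Single genes of TGF-beta and YAP signalling are given here as values only, since they were picked after those were seen and no list of either pathway was counted. CCN2, a target of both pathways, was at 66.2, 63.5 and 67.2 CPM in hMN-D42, against 22.2, 14.8 and 37.3 CPM in hMN-D30 (log2 fold change 1.41, SE 0.23, edgeR adjusted p = 0.000117). Here hMN-D30 replicate 3 was the highest of its day, as for collagen. The ligands TGFB1 (1.1) and TGFB2 (0.67), the receptors TGFBR2 (2.82) and TGFBR3 (2.07), the coactivators YAP1 (1.56) and WWTR1 (1.71) and the BMP-responsive ID1 (1.18) and ID3 (1.68) were also called higher on the log2 scale, whereas TGFBR1, SMAD7 and AMOTL2 were not called. The gelatinase MMP2 was at 224, 221 and 225 CPM in hMN-D42, against 55.1, 59.5 and 89.7 CPM in hMN-D30 (log2 fold change 1.72).

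Genes of iron and of retinoic acid handling also differed, likewise chosen after their values were seen. TFRC, the transferrin receptor, was at 157, 159.7 and 151 CPM in hMN-D42, against 98.7, 94.6 and 96.7 CPM in hMN-D30 (log2 fold change 0.69, SE 0.04, edgeR adjusted p = 2.57e-19), while FTH1, the ferritin heavy chain, was higher by 0.33, with 63.2% of its exon bases shared with other genes. The retinoic acid hydroxylases went opposite ways: CYP26A1 was at 4.04, 3.56 and 4.1 CPM in hMN-D42, against 0.218, 0.772 and 1.18 CPM in hMN-D30 (log2 fold change 2.44, 25.3% of exon bases shared), and CYP26B1 was at 3.19, 3.95 and 2.67 CPM in hMN-D42, against 6.4, 5.63 and 5.2 CPM in hMN-D30 (log2 fold change -0.83). Beside the serotonergic genes of the report, MAOB, which breaks down monoamines and is also found in astrocytes, was at 7.91, 7.73 and 8.67 CPM in hMN-D42, against 2.79, 1.91 and 1.61 CPM in hMN-D30 (log2 fold change 1.94, SE 0.20, edgeR adjusted p = 2.6e-11), and TPH1 was higher at below 3 CPM (1.37).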
